A study of Mus musculus with 18 samples.

Results

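The genes described here are those that oligodendrocytes, the myelin-forming glia of the central nervous system, use to build and maintain myelin, together with the transcription factors of the lineage. They were chosen by name from a list of 33 genes, with earlier results of these data known. A probe set belonged to them when the array's annotation gave it the symbol of a listed gene and no other. This rule found 59 probe sets of 30 genes, among 22626 probe sets of 12393 named genes in all. Trf was not a member because its probe set carries more than one symbol, and Enpp2 and Bcas1 were not analysed here. The 30 genes fall into 5 classes: 6 of compact myelin and tetraspan proteins, 10 of adhesion, junction and cytoskeleton, 4 of myelin lipid synthesis, 4 metabolic or secreted proteins, and 6 lineage factors.

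Myelin is a stack of glial membrane wrapped around axons. It is held together by basic and tetraspan proteins and is rich in galactolipids and cholesterol, which oligodendrocytes largely make themselves. SOX10, OLIG1, OLIG2 and MYRF drive the lineage from progenitor to myelinating cell, and the proteins they switch on are among the most abundant of white matter. In amyotrophic lateral sclerosis (ALS), motor neurons of the spinal cord degenerate while the oculomotor nucleus, which moves the eyes, is largely spared.

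RNA from these regions was hybridised to Affymetrix 430A mouse arrays, with 3 arrays in each of 6 groups. The oculomotor nucleus came from 10-week-old mutants, 10-week-old controls and 6-week-old mutants, and the cervical spinal cord from mice of the same kinds. The mutants are described as an ALS model, but the labels used here give no mutation, strain, promoter or number of animals per array, and there is no control of 6 weeks, so a change with age in mutants cannot be told apart from normal maturation. The study set the spared region against the affected one at each age.

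The array of control spinal cord replicate 1 is not used, since its signals correlated with the other arrays at no more than 0.0143 across probe sets. The other 17 arrays correlated with each other at 0.957 to 0.985, with array medians of 207.1 to 226.1. Spinal cord identity was clear from Hox genes: Hoxb6, a patterning gene of the cord, read 16.8 to 85.3 on the 9 oculomotor arrays, against 856.5 to 1126.1 on the 8 spinal cord arrays used. En1, a factor of the midbrain and anterior hindbrain, read 199.5 to 364.9 on oculomotor arrays, against 78.5 at most on spinal cord arrays. Phox2a, a defining factor of oculomotor neurons, was dim in both regions, at 33.4 to 69.7 on oculomotor and 38.5 to 84.6 on spinal cord arrays. Slc18a3, the acetylcholine transporter of motor neuron vesicles, read 204.1 to 388.9 on oculomotor and 977.3 to 1263.1 on spinal cord arrays. Nothing says that replicate arrays came from separate animals, so every p-value reflects array-to-array spread alone, which may be technical, and precision is limited by 2 or 3 arrays per group. Leaving out either control spinal cord array leaves a single array in that group, so a call can be lost there with little change in the difference.

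Promoters of 21 of the 30 genes were found in RefSeq (assembly GRCm38.p6), as 35 windows of the 250 bases before a transcript start. Each window was searched on both strands for a SOX motif (ACAANG) and a MYRF motif (CTGGNAC); the MYRF motif ends in the letters that open the SOX motif, so matches can overlap. The SOX motif occurred in 17 of 35 windows (48.6%), against 36.3% of all 32851 promoters of that length, and the MYRF motif in 9 of 35 (25.7%), against 16.1%. Windows of the same gene can overlap and share matches. By gene, the SOX motif occurred in 12 of 21 and the MYRF motif in 7 of 21. Some genes have several windows, so these counts per gene cannot be set against the shares per window. These matches are descriptions of letters, not binding sites. The 4 windows below belong to genes that the results turn on: Ugt8a and Gal3st1 had similar regional differences in every condition, and Mobp and Mag had 2 of the most negative values when the change with age was compared between regions. Capitals mark matches to either motif. The windows lie at chr3:125938653-125938902 on the minus strand, chr11:3983386-3983635 on the plus strand, chr9:120149492-120149741 on the plus strand and chr7:30914864-30915113 on the minus strand.
Ugt8a: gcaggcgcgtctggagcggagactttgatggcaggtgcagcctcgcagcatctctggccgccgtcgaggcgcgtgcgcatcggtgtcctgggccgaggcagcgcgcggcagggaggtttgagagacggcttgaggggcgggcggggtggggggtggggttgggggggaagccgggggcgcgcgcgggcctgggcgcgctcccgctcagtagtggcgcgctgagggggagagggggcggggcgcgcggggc
Gal3st1: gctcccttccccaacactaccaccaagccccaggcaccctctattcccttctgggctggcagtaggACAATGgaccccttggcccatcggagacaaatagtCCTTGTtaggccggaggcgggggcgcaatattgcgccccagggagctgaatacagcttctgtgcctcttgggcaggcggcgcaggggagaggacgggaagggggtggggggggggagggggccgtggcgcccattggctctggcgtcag
Mobp: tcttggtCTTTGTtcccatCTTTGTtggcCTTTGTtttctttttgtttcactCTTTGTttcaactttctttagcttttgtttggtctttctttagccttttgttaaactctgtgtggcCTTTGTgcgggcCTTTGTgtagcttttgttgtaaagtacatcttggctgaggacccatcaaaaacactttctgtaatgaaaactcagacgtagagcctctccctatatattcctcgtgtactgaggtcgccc
Mag: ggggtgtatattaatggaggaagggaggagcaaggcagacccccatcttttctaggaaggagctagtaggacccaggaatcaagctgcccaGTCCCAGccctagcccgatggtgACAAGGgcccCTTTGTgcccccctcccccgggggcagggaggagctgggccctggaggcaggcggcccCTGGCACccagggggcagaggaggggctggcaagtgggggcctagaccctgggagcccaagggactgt
Ugt8a held neither motif in this window, Gal3st1 held 2 SOX matches, Mobp 6 SOX matches, and Mag 2 of each motif. Gal3st1 and Mag have further windows: another Gal3st1 window held neither motif, and another Mag window held 1 SOX match and no MYRF match.

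Most of these genes gave lower signals in the oculomotor nucleus than in spinal cord. Differences are given as log2(signal + 25) with their standard error (SE), each gene by its brightest probe set, and a gene is called when its adjusted p from limma over 13575 probe sets is under 0.05. In 10-week mutants 22 of 30 genes were called lower, in 10-week controls 25, and in 6-week mutants 17; none was called higher. Of all probe sets tested, 9.99%, 6.94% and 11.7% were called lower in the same comparisons, and 1263, 899 and 1656 of 13575 were called higher. The median difference of the 30 genes was -0.53 in 10-week mutants, -0.70 in 10-week controls and -0.44 in 6-week mutants, beside 0.00, 0.01 and 0.03 over all probe sets. Where a level is given as a percentage of the spinal cord level, it is the ratio of geometric means of signal + 25, which for dim genes lies nearer to 100% than the ratio of the signals. In these bulk samples, fewer oligodendrocytes and less RNA per oligodendrocyte cannot be told apart.

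These 3 regional comparisons share no array, but their calls come from the same fit with a shared estimate of spread and are not independent. A core of 15 genes was lower in all 3 comparisons: Apod, Aspa, Cldn11, Cryab, Fa2h, Gal3st1, Gjb1, Gpr37, Gsn, Mag, Mog, Nkx2-2, Pllp, Sox10 and Ugt8a. Another 7 were called at 10 weeks in both genotypes and not at 6 weeks: Car2, Evi2a, Mal, Mobp, Olig1, Plekhb1 and Septin4. Cnp, Mbp and Qdpr were called in controls alone, Myrf and Olig2 in 6-week mutants alone, and Edil3, Nkx6-2 and Tspan2 in none. Those calls rest on the brightest probe sets. Dimmer probe sets of Cnp, Mal, Mbp, Qdpr, Septin4 and Tspan2 separated the regions, with lower oculomotor signals, in some conditions without such a call. Whether a gene called in one condition differed in size from another condition is a separate test, given with age and genotype.

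**Figure D1:**
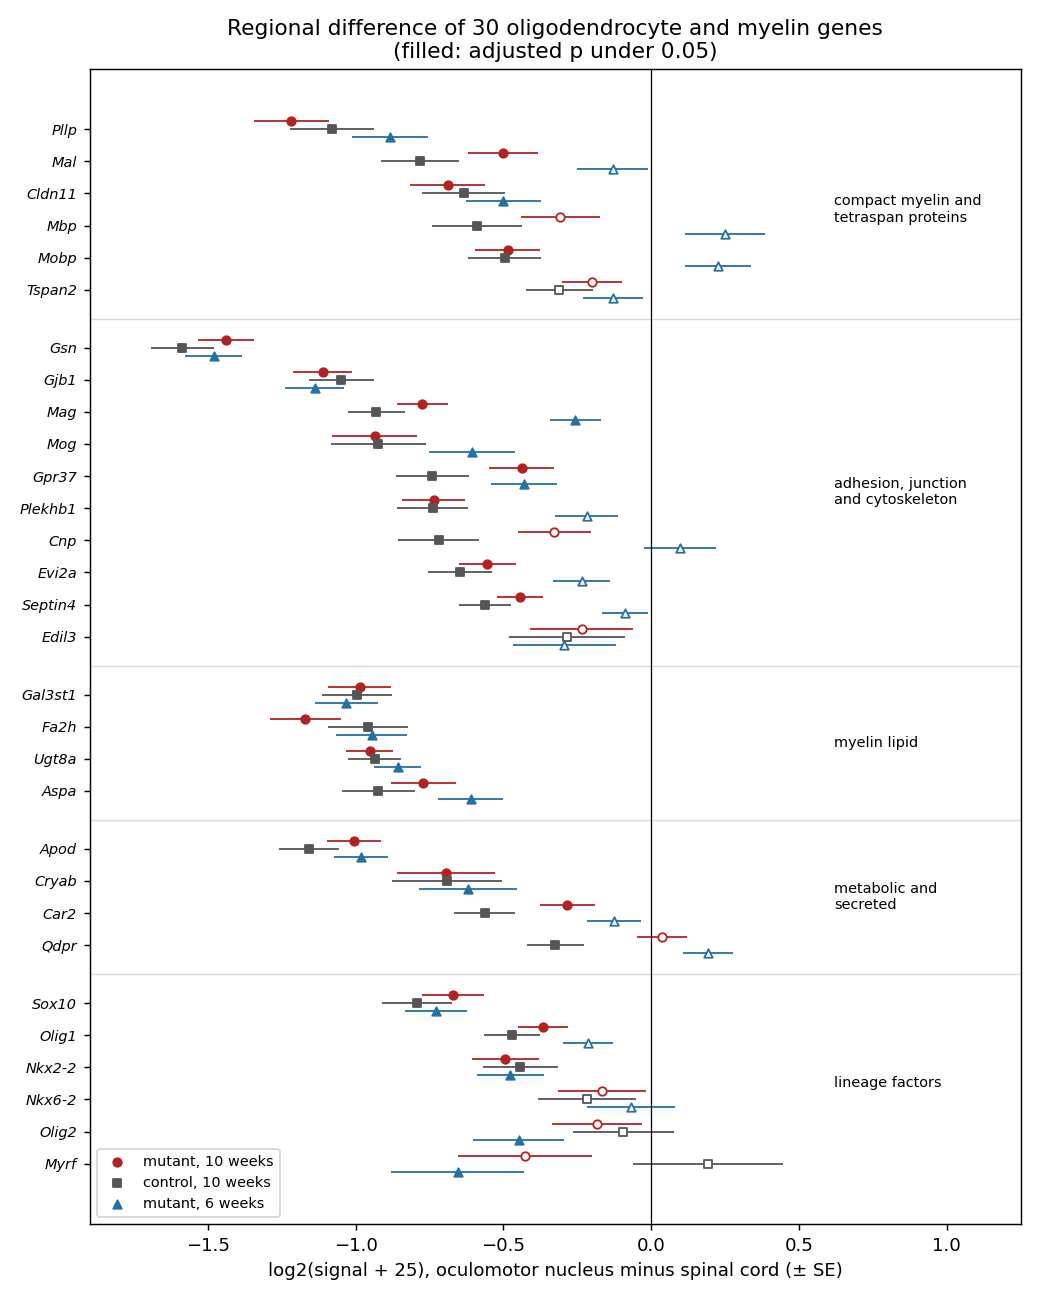
Difference in log2(signal + 25), oculomotor nucleus minus spinal cord, for 30 genes in 10-week mutants, 10-week controls and 6-week mutants; points are fitted differences, bars their SE, and filled points have an adjusted p under 0.05. The 4 lipid genes sit between -1.17 and -0.61 in every condition, whereas Mbp and Mobp lie left of 0 at 10 weeks and right of it, with open points, at 6 weeks, where quantile normalization gave -0.14 and -0.036.

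Among the compact myelin and tetraspan genes, 4 of 6 were lower in 10-week mutants, 5 in controls and 2 in 6-week mutants, with medians of -0.49, -0.61 and -0.13. Pllp, which encodes the tetraspan protein plasmolipin, had the largest difference of the class. Oculomotor Pllp signals were 908.5, 983.6 and 890.3 in 10-week mutants, 1008, 1278 and 1296 in 10-week controls, and 1311, 1088 and 1049 in 6-week mutants. Spinal cord Pllp signals were 2616, 2186 and 1834 in 10-week mutants, 2420.0 and 2659 in 10-week controls, and 2327, 2095 and 1986 in 6-week mutants. No oculomotor array reached the lowest spinal cord array, and the differences were -1.22 ± 0.13, -1.08 ± 0.14 and -0.88 ± 0.13 (adjusted p = 1.61e-06, 3.66e-05 and 5.75e-05) in 10-week mutants, controls and 6-week mutants. Cldn11, which forms the tight junctions of central myelin, differed by -0.69 ± 0.13, -0.63 ± 0.14 and -0.50 ± 0.13 in the same order. Without control spinal cord replicate 2 its difference in controls was still -0.63 but no longer called, in a fit with a single control spinal cord array.

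Mbp, the basic protein that joins the inner faces of the myelin membrane, had a regional value at 6 weeks of the opposite sign to those at 10 weeks, but not with quantile normalization, which gave -0.14 at 6 weeks. Oculomotor Mbp signals were 16929, 14204 and 14726 in 10-week mutants, 10209.8, 10658 and 10727 in 10-week controls, and 18714, 20315 and 20587 in 6-week mutants. Spinal cord Mbp signals were 15463, 21789 and 19908 in 10-week mutants, 19699 and 12752 in 10-week controls, and 14993, 17669 and 17562 in 6-week mutants. Every 6-week oculomotor array read above every 6-week spinal cord array, although the difference of 0.25 ± 0.14 missed the threshold (adjusted p = 0.193). At 10 weeks the values were -0.31 ± 0.14 in mutants (adjusted p = 0.122) and -0.59 ± 0.15 in controls (adjusted p = 0.0127). Single arrays decided both outcomes: the control call was lost at -0.28 without control spinal cord replicate 2 (adjusted p = 0.366), and the mutant value of -0.45 was called without 10-week mutant spinal cord replicate 1 (adjusted p = 0.0313).

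Mobp, another basic protein of compact myelin, also had negative regional values at 10 weeks and a positive one at 6 weeks, which was -0.036 with quantile normalization. Oculomotor Mobp signals were 9290.3, 7916 and 8673 in 10-week mutants, 6559, 6624 and 7797 in 10-week controls, and 10526, 11756 and 11405 in 6-week mutants. Spinal cord Mobp signals were 10474, 13681 and 12235 in 10-week mutants, 10140.4 and 9542 in 10-week controls, and 8532, 11219.6 and 9200.5 in 6-week mutants. At 10 weeks the regions did not overlap, with differences of -0.48 ± 0.11 in mutants and -0.50 ± 0.12 in controls (adjusted p = 0.00444 and 0.0105). The control call was lost without control spinal cord replicate 2 (-0.45, adjusted p = 0.114). At 6 weeks the ranges overlapped and the difference was 0.23 ± 0.11 (adjusted p = 0.148); without 6-week mutant spinal cord replicate 2 it was 0.34 and called higher (adjusted p = 0.0412). Mal, a raft protein that sorts myelin components, was 70.6% of the spinal cord level in 10-week mutants, 58.1% in controls and 91.4% in 6-week mutants. The dimmer Mal probe set separated the regions at 6 weeks as well, at 4054.7 to 6174.7 on oculomotor and 6832.3 to 7909.5 on spinal cord arrays. Tspan2, a tetraspanin of oligodendrocytes, was not called in any condition by its brightest probe set, with differences from -0.31 to -0.13. The dimmest Tspan2 probe set read 1788.9 to 2025.6 on oculomotor and 2402.6 to 2609.3 on spinal cord arrays at 6 weeks. In controls it read 1115.3 to 1317.5 against 1521.2 to 1741.6, and in 10-week mutants its ranges overlapped.

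**Figure D2:**
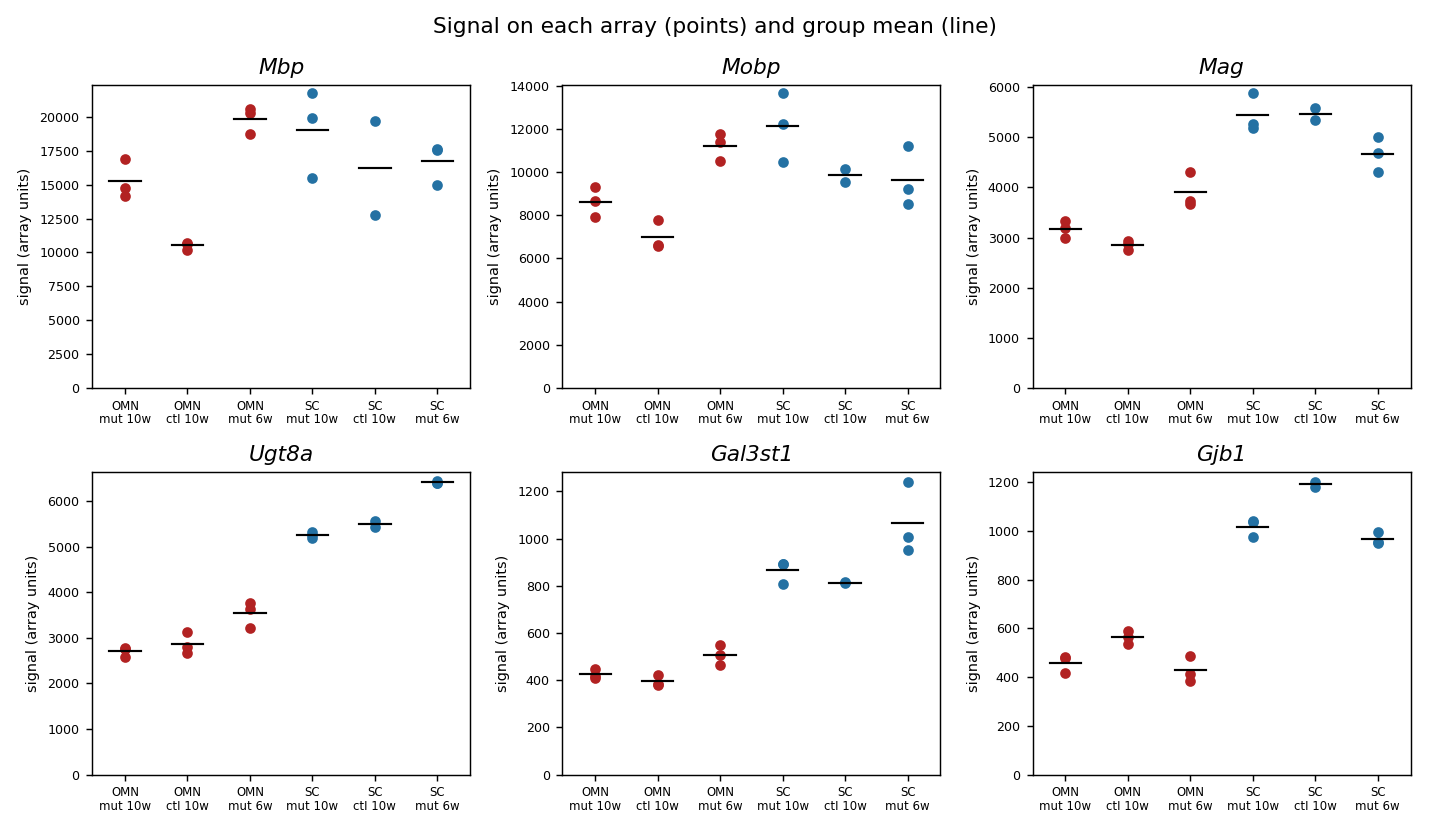
Signal of 6 genes on each of 17 arrays (points) with group means (lines), oculomotor nucleus (OMN, red) left of spinal cord (SC, blue), for mutants (mut) and controls (ctl) of 10 weeks (10w) and mutants of 6 weeks (6w). Ugt8a, Gal3st1 and Gjb1 separate the regions on all arrays, whereas Mbp and Mobp of 6-week oculomotor arrays reach spinal cord levels. Mbp of 10-week mutants and Mag of 6-week mutants also overlap between the regions.

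The adhesion, junction and cytoskeleton genes were lower for 8 of 10 members in 10-week mutants, 9 in controls and 5 in 6-week mutants. Gsn, the actin-severing protein gelsolin, had the largest difference of all 30 genes. Oculomotor Gsn signals were 1729, 1796 and 2092 in 10-week mutants, 1652, 1709.6 and 1803 in 10-week controls, and 2554, 2418 and 2368 in 6-week mutants. Spinal cord Gsn signals were 4478, 5145 and 5766 in 10-week mutants, 5393 and 5048 in 10-week controls, and 7202, 6477 and 6946 in 6-week mutants. The oculomotor level was 36.9%, 33.3% and 35.8% of the spinal cord level in 10-week mutants, controls and 6-week mutants, with adjusted p of 4.55e-09, 8.39e-09 and 2.58e-09. Gsn is also made by cells other than oligodendrocytes, meningeal fibroblasts among them.

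Gjb1 encodes a connexin of oligodendrocyte gap junctions. Oculomotor Gjb1 signals were 415.6, 478.2 and 481.6 in 10-week mutants, 537.9, 563.9 and 588.1 in 10-week controls, and 412.3, 383.3 and 487.0 in 6-week mutants. Spinal cord Gjb1 signals were 1042, 975.3 and 1038 in 10-week mutants, 1181 and 1202 in 10-week controls, and 994.2, 950.9 and 956.6 in 6-week mutants. The regions were fully separate, and the differences of -1.11 ± 0.10, -1.05 ± 0.11 and -1.14 ± 0.10 lay within their SE of each other.

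Mag, the adhesion molecule that faces the axon, was called lower in all conditions. Oculomotor Mag signals were 3321, 2984 and 3199.8 in 10-week mutants, 2750.1, 2873 and 2936 in 10-week controls, and 4318, 3721 and 3678 in 6-week mutants. Spinal cord Mag signals were 5179.5, 5258 and 5889 in 10-week mutants, 5336 and 5585 in 10-week controls, and 5016, 4306 and 4678 in 6-week mutants. The regions were separate at 10 weeks (-0.77 ± 0.09 in mutants and -0.93 ± 0.10 in controls, adjusted p = 3.7e-06 and 2.21e-06) and overlapped at 6 weeks, where 1 oculomotor array exceeded the lowest spinal cord array (-0.26 ± 0.09, adjusted p = 0.0377). The 6-week call was lost without oculomotor replicate 2 (adjusted p = 0.123) or 3 (0.126), or without spinal cord replicate 1 (0.154) or 3 (0.0862).

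Cnp is the cyclic nucleotide phosphodiesterase that keeps cytoplasmic channels open in myelin. Its brightest probe set was called lower in controls and in neither mutant group, while both dimmer ones separated the regions in 10-week mutants. Oculomotor Cnp signals were 11109, 11188 and 11384 in 10-week mutants, 7365, 8260.3 and 7795 in 10-week controls, and 14425, 12449 and 13921 in 6-week mutants. Spinal cord Cnp signals were 11236, 16934 and 14703 in 10-week mutants, 15013 and 10999 in 10-week controls, and 12584, 12748 and 12728 in 6-week mutants. The control oculomotor arrays were the lowest of all 17, and the control difference was -0.72 ± 0.14 (adjusted p = 0.00136; without control spinal cord replicate 2, -0.49 and 0.0681). In 10-week mutants it was -0.33 ± 0.12 (adjusted p = 0.0689). Leaving out replicate 1 of that group's spinal cord gave -0.49, which was called (adjusted p = 0.00501). Leaving out either control spinal cord array also brought the call in 10-week mutants (adjusted p = 0.044 in each case).

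Mog, on the outer face of the sheath, was at 52.3%, 52.7% and 65.7% of the spinal cord level in 10-week mutants, controls and 6-week mutants. Gpr37, a receptor of mature oligodendrocytes, was at 73.8%, 59.9% and 74.3%. Its mutant calls were lost without 10-week oculomotor replicate 2 (adjusted p = 0.0545) and without 6-week spinal cord replicate 2 (0.0559). Plekhb1, Evi2a and Septin4, a filament protein, differed by -0.74, -0.55 and -0.44 in 10-week mutants, and by -0.22, -0.23 and -0.09, not called, in 6-week mutants. The dimmer Septin4 probe set separated the regions at 6 weeks, at 1018.9 to 1292.5 on oculomotor and 1424.4 to 1609.0 on spinal cord arrays. It also did so in 10-week mutants, and in controls its ranges overlapped. Edil3, a secreted integrin ligand, was not called, at -0.23, -0.28 and -0.29.

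All 4 myelin lipid genes were lower in every condition, and the medians of this class were the closest of the 5 classes across conditions, at -0.97 in 10-week mutants, -0.95 in controls and -0.90 in 6-week mutants. Ugt8a makes galactosylceramide, the main glycolipid of myelin. Oculomotor Ugt8a signals were 2756, 2585 and 2779.5 in 10-week mutants, 2808, 2669.9 and 3125 in 10-week controls, and 3636, 3766 and 3211 in 6-week mutants. Spinal cord Ugt8a signals were 5265, 5328 and 5186 in 10-week mutants, 5436 and 5559.9 in 10-week controls, and 6393, 6389.6 and 6454 in 6-week mutants. The highest oculomotor array lay below the lowest spinal cord array, and the differences were -0.95 ± 0.08, -0.94 ± 0.09 and -0.86 ± 0.08 (adjusted p = 1.02e-07, 8.08e-07 and 3.27e-07).

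Gal3st1 adds the sulfate that turns galactosylceramide into sulfatide. Oculomotor Gal3st1 signals were 417.6, 446.9 and 408.6 in 10-week mutants, 380.4, 384.1 and 421.9 in 10-week controls, and 550.2, 463.9 and 507.2 in 6-week mutants. Spinal cord Gal3st1 signals were 894.2, 892.4 and 809.0 in 10-week mutants, 810.4 and 813.9 in 10-week controls, and 1240.3, 952.6 and 1008 in 6-week mutants. The regions were again fully separate, and on the signal + 25 scale the oculomotor nucleus was at 50.5%, 50.2% and 48.9% of the spinal cord level. Fa2h, which hydroxylates the fatty acids of these lipids, stood at 44.4%, 51.5% and 51.9%. Aspa, which releases acetate for lipid synthesis from N-acetylaspartate, stood at 58.6%, 52.7% and 65.5%. No lipid gene lost its regional call when any single array was left out.

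Of the metabolic and secreted genes, Apod, a lipid-binding lipocalin, had the largest difference. Oculomotor Apod signals were 3981, 4428 and 4274 in 10-week mutants, 3516, 3532 and 4012 in 10-week controls, and 4457, 4434 and 4668 in 6-week mutants. Spinal cord Apod signals were 7478, 9612 and 8558 in 10-week mutants, 8453 and 8031 in 10-week controls, and 8526, 8677 and 9688 in 6-week mutants. The oculomotor level relative to that in cord was 49.8%, 44.8% and 50.6%. Cryab, a small heat shock protein, differed by -0.69 ± 0.17, -0.69 ± 0.19 and -0.62 ± 0.17. Its control call was lost without oculomotor replicate 2 (adjusted p = 0.0779) or spinal cord replicate 3 (0.161), and its 6-week call without oculomotor replicate 1 (0.0657) or spinal cord replicate 2 (0.0623).

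Qdpr, which recycles the cofactor tetrahydrobiopterin, had no call in either mutant comparison by its brightest probe set. Oculomotor Qdpr signals were 7844, 7884 and 7952 in 10-week mutants, 7037, 6402 and 6889.5 in 10-week controls, and 8673, 8479 and 9453 in 6-week mutants. Spinal cord Qdpr signals were 6988, 8183 and 7946 in 10-week mutants, 9266 and 7764 in 10-week controls, and 8167, 7864 and 7261 in 6-week mutants. The difference was 0.04 ± 0.09 in 10-week mutants and 0.19 ± 0.09 in 6-week mutants, neither called (-0.0051 and -0.029 with quantile normalization), and -0.32 ± 0.10 in controls (adjusted p = 0.0289). That call was lost without control oculomotor replicate 2 (adjusted p = 0.106) or 3 (0.0509) or spinal cord replicate 2 (-0.20, 0.388). In 10-week mutants the dimmer Qdpr probe set read 4747.7 to 5300.2 on oculomotor and 5544.8 to 6041.6 on spinal cord arrays. At 6 weeks it was the other way round, at 5930.2 to 6567.0 and 4689.5 to 4967.1. Car2, a carbonic anhydrase, differed by -0.28 ± 0.09, -0.56 ± 0.10 and -0.13 ± 0.09. Its call in 10-week mutants was lost without oculomotor replicate 2 (adjusted p = 0.12) or 3 (0.113), or any of the 3 spinal cord arrays (0.0617, 0.126 and 0.0524).

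Lineage factors differed less evenly, with 3 of 6 called lower in 10-week mutants, 3 in controls and 4 in 6-week mutants. Sox10, needed for oligodendrocyte differentiation, was lower throughout. Oculomotor Sox10 signals were 856.6, 971.1 and 1017 in 10-week mutants, 929.0, 816.8 and 825.6 in 10-week controls, and 961.1, 1152 and 954.8 in 6-week mutants. Spinal cord Sox10 signals were 1588, 1510.0 and 1468 in 10-week mutants, 1621 and 1388 in 10-week controls, and 1632, 1899 and 1596 in 6-week mutants. No arrays overlapped, and the differences were -0.67 ± 0.11, -0.79 ± 0.12 and -0.73 ± 0.11. Nkx2-2, a factor that promotes differentiation, differed by -0.49 ± 0.11, -0.44 ± 0.13 and -0.48 ± 0.11. Its control call was lost without oculomotor replicate 3 (adjusted p = 0.0978) or spinal cord replicate 2 (0.0612) or 3 (0.193).

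Olig1, a helix-loop-helix factor of the whole lineage, was called at 10 weeks (-0.37 ± 0.08 in mutants and -0.47 ± 0.09 in controls) and not at 6 weeks (-0.21 ± 0.08, adjusted p = 0.0742). The control call was lost without spinal cord replicate 2 (-0.36, adjusted p = 0.0789). Olig2, its partner, was called at 6 weeks and not at 10 weeks (-0.45 ± 0.15, adjusted p = 0.0409), and that call was lost without oculomotor replicate 2 (0.093) or 3 (0.141) or spinal cord replicate 1 (0.165) or 3 (0.0685). Myrf, the master factor of myelin gene transcription, was called at 6 weeks with overlapping arrays (-0.66 ± 0.23, adjusted p = 0.0426). The Myrf call was lost without 6-week oculomotor replicate 2 (0.189) or 3 (0.102), 6-week spinal cord replicate 1 (0.122) or 2 (0.121), or control spinal cord replicate 2 (0.0508) or 3 (0.0505). Nkx6-2, a late oligodendrocyte factor, was dim and not called, at -0.17, -0.22 and -0.07.

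Relative to compact myelin genes, lipid genes read lower in the oculomotor nucleus than in spinal cord. Levels of different probe sets cannot be set against each other, so here only the gap between regions can be read. The mean log2 signal of the 4 lipid genes minus that of the 6 compact myelin genes was -1.62 ± 0.11 in 10-week mutants, -1.52 ± 0.03 in 10-week controls and -1.73 ± 0.07 in 6-week mutants in the oculomotor nucleus (SD, n = 3 each). In spinal cord it was -1.22 ± 0.15 (n = 3), -1.22 ± 0.06 (n = 2) and -1.06 ± 0.03 (n = 3) in the same order. The highest of 9 oculomotor arrays lay at -1.50 and the lowest of 8 spinal cord arrays at -1.33. These values describe the chosen genes and carry no test.

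**Figure D3:**
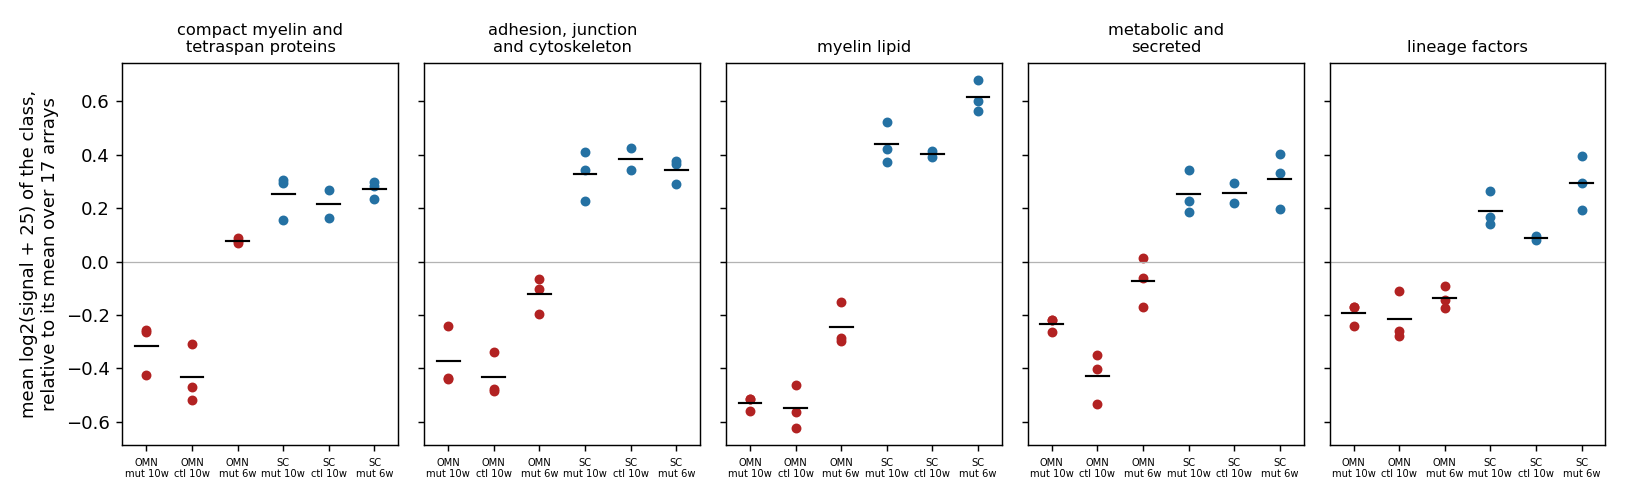
Mean log2(signal + 25) of each gene class on each array, relative to the mean of that class over 17 arrays; points are arrays, lines group means, OMN is the oculomotor nucleus (red) and SC the spinal cord (blue), for mutants (mut) and controls (ctl) of 10 weeks (10w) and mutants of 6 weeks (6w). Compact myelin genes of 6-week oculomotor arrays lie well above those of 10 weeks, and the lipid class has the widest gap between regions.

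Some genes gave unlike results from different probe sets. The brightest probe sets of Cnp, Mbp and Qdpr, the genes called in controls alone, carry the suffix x, by which Affymetrix marks probe sets that may also bind other transcripts. Of 55 probe sets of the members that passed the filter on dim signals (4 of 59 did not), 37 were called lower in 10-week mutants, 42 in controls and 27 in 6-week mutants. The 3 called higher were all at 6 weeks: the third brightest Mbp probe set (0.41), the fifth brightest Mbp probe set (0.52) and the dimmer Qdpr probe set (0.37). Of the 8 Mbp probe sets, the 7 brightest had a 6-week difference between 0.08 and 0.52, and the dimmest was near 0 in every condition. With quantile normalization the 7 lay between -0.30 and 0.22: the third brightest (0.11, adjusted p = 0.187) was no longer called, the fourth was called lower (adjusted p = 0.00535), and the fifth and the dimmer of Qdpr were still called higher (adjusted p = 0.0121 and 0.0185). Cnp was divided: its brightest probe set read 0.10 at 6 weeks (-0.18 with quantile normalization), while the dimmer ones read -0.40 and -0.48, both called. In 10-week mutants both dimmer Cnp probe sets separated the regions. The second brightest read 3296.2 to 3819.2 on oculomotor and 5926.8 to 7088.0 on spinal cord arrays. For the dimmest the ranges were 3000.4 to 3147.2 and 5083.6 to 5610.6. The brightest Sox10 probe set was lower in every condition, while the second brightest was called in none (-0.40, -0.25 and -0.04). The 4 Gsn probe sets that passed lay below 0 throughout, with 1 of 12 values not called.

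**Figure D4:**
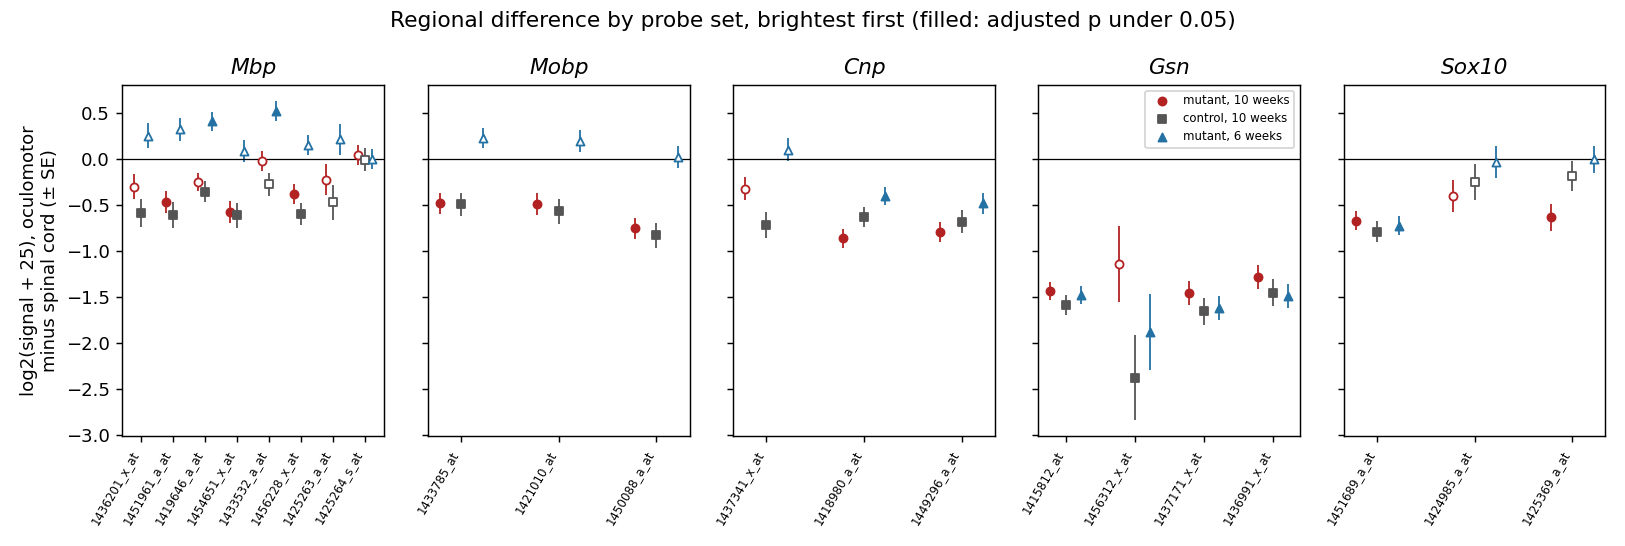
Difference in log2(signal + 25), oculomotor nucleus minus spinal cord, for each probe set of 5 genes, brightest at the left, in 10-week mutants, 10-week controls and 6-week mutants; bars are SE and filled points have an adjusted p under 0.05. The 3 Cnp probe sets disagree at 6 weeks, and the brightest lies nearest to the zero line in 10-week mutants, whereas the 4 Gsn probe sets all lie at -1.14 or lower.

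Other oligodendrocyte genes, from a companion list with no member in it, were lower as well. Of 37 tested, 27 were called lower in 10-week mutants, 26 in controls and 21 in 6-week mutants, with medians of -0.58, -0.65 and -0.47, and none was called higher. Klk6, a secreted protease of oligodendrocytes, differed by -1.94, -1.78 and -1.95. Ndrg1, whose loss causes demyelination of peripheral nerve, differed by -0.97, -0.88 and -1.02. Oligodendrocyte progenitor genes were mixed, with 4 lower and 2 higher of 15 in 10-week mutants, 1 and 2 in controls, and 6 and 1 in 6-week mutants. Of all probe sets, 9.99%, 6.94% and 11.7% were lower in the same order, and 1263, 899 and 1656 of 13575 higher. The proteoglycan Cspg5 was higher in every condition (0.49, 0.53 and 0.63).

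Enzymes around the lipid genes were lower in part. Of 16 sphingolipid and galactolipid genes, 4 were lower in 10-week mutants, 3 in controls and 4 in 6-week mutants, and 1 was higher, Psap in 6-week mutants (0.37, adjusted p = 0.00879; with quantile normalization, adjusted p = 0.265). Gltp, the glycolipid transfer protein, differed by -1.18, -1.05 and -1.06, and Cers2, which makes ceramides of very long chains, by -0.79, -0.61 and -1.21. Of 18 cholesterol synthesis genes, 8, 5 and 11 were lower and none higher. Hmgcs1, an early enzyme of that pathway, differed by -0.55, -0.66 and -0.90.

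Genes of the node of Ranvier and its flanks were mixed. Kcna1, the potassium channel beside the paranode, differed by -0.75, -1.17 and -0.71, and its subunit Kcnab2 by -0.54, -0.72 and -0.53. Cntnap1, the axonal partner in the paranodal junction, was higher in controls (1.00) and 6-week mutants (0.69). Of the Schwann cell list, Pmp22, which fibroblasts also make, differed by -1.94, -1.69 and -2.65; only 4 of its 10 genes on the array passed the filter. Of these 4, the adhesion molecules Ncam1 (1.10, 1.08 and 0.77) and L1cam (0.92, 1.14 and 0.70), which neurons also make, were higher in every condition, and the list's medians were 0.29, 0.28 and 0.21.

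Markers of other cell types also differed between the regions. For comparison, 9.99%, 6.94% and 11.7% of all probe sets were lower in 10-week mutants, controls and 6-week mutants. Those called higher were 1263, 899 and 1656 of 13575. The meningeal and fibroblast list was lower for 13 of 13 genes in 10-week mutants, 12 in controls and 13 in 6-week mutants, and the summed signal of its 14 genes ran from 3946 to 5509.5 on oculomotor arrays, against 8728 to 15718 on spinal cord arrays. Microglial genes were lower for 8, 4 and 6 of 11 and higher for none, with summed signals of 6412 to 7579 against 8754 to 13145. Astrocyte genes were lower for 5, 4 and 6 of 15 and higher for 1, 1 and 2, with summed signals of 34879.7 to 40814 against 49251 to 57516. Neuronal genes were higher for 3, 4 and 6 of 15 and lower for 2, 2 and 1, with summed signals of 65174 to 70537 against 60301 to 74574. The summed signal of the 30 members ran from 84613 to 125696 on oculomotor arrays and from 131322 to 156744 on spinal cord arrays. The part of these other cells in the regional differences was not tested.

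Few of these genes were called between mutant and control mice of 10 weeks. In the oculomotor nucleus 1 of 30 genes was called, Cnp, which was higher in mutants, while 1.47% of all probe sets were called. Mutant oculomotor Cnp read 11109, 11188 and 11384, against 7365, 8260.3 and 7795 in controls, a difference of 0.52 ± 0.12 (adjusted p = 0.0384). The arrays did not overlap, but the other Cnp probe sets read -0.14 and -0.13, and the call was lost without any one of the 6 oculomotor arrays of 10 weeks (adjusted p between 0.068 and 0.143), and without 6-week mutant spinal cord replicate 1 (0.052) or 3 (0.0512). With quantile normalization the Cnp difference was 0.30 and not called (adjusted p = 0.0725).

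Mbp also read higher on every mutant array. Mutant oculomotor Mbp read 16929, 14204 and 14726, against 10209.8, 10658 and 10727 in controls, a difference of 0.53 ± 0.14 with an adjusted p of 0.055. It was called without control spinal cord replicate 2 (adjusted p = 0.0194) or 3 (0.0195), or mutant spinal cord replicate 1 (0.0239) or 2 (0.0494). Of the other Mbp probe sets, the fifth brightest (0.45) and the seventh (0.69) were called higher in mutants. With quantile normalization the brightest Mbp probe set read 0.17 (adjusted p = 0.375) and the fifth -0.0076, while the seventh was still called (adjusted p = 0.045). The median of the 30 genes was 0.12, beside -0.01 over all probe sets. Gjb1 (-0.29 ± 0.10) and Pllp (-0.35 ± 0.13) were among those with negative values, neither called.

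In spinal cord limma called no member, with a median of -0.00 beside 0.00 over all probe sets, while 0.0221% of all probe sets were called. At an unadjusted p under 0.05, 1 member was higher and none lower, where 6.62% of all probe sets were higher and 5.13% lower. The difference of the genotype effect between regions was called for no probe set (0%). At an unadjusted p under 0.05 it was higher for 2 members and lower for none, where 2.67% of all probe sets were higher and 3.48% lower. Of the node list, Kcna1 (0.65, adjusted p = 0.02) and Cntn1 (0.34, 0.0426) were higher and Cntnap1 (-0.74, 0.0374) lower in mutant oculomotor nucleus. Of 37 other oligodendrocyte genes, none was called there. The oculomotor arrays of 10 weeks include mutant replicate 2 and control replicate 3, on which 6 pituitary hormone genes summed to 23561.6 and 6489.4, against 595.5 to 1779.3 on the other 7 oculomotor arrays. Without both arrays no member was called.

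In mutants, most of these genes read lower at 10 than at 6 weeks in the oculomotor nucleus, but none passed the adjusted threshold. On the log2 scale 26 of 30 were below 0, with a median of -0.25 beside 0.00 over all probe sets. In limma, 0.0221% of all probe sets were called. At an unadjusted p under 0.05, 17 members were lower and none higher, where 4.46% of all probe sets were lower. For 20 of 30 genes every 10-week array lay below every 6-week array, against 7% of all probe sets. Quantile normalization left 14 such genes, against 7.02% of all probe sets, and median centring 18, against 6.1%.

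Septin4 had the smallest p. Oculomotor Septin4 read 3191, 3326 and 3359.7 at 10 weeks, against 4632, 4162 and 4553 at 6 weeks, a difference of -0.43 ± 0.08 (adjusted p = 0.0607). Oculomotor Mal read 5369.6, 4510.5 and 5059.5 at 10 weeks, against 7192, 6894 and 7326 at 6 weeks (-0.52 ± 0.12, adjusted p = 0.123). Ugt8a differed by -0.38 ± 0.08 (adjusted p = 0.0926). All 6 compact myelin genes were separated in this way, as were 8 of 10 adhesion genes and 3 of 4 lipid genes, but only 1 of 6 lineage factors, Olig1.

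In mutant spinal cord, 1 of 30 genes was called with age, while 2.76% of all probe sets were called. Spinal cord Gsn read 4478, 5145 and 5766 at 10 weeks, against 7202, 6477 and 6946 at 6 weeks, a difference of -0.43 ± 0.10 (adjusted p = 0.0251). The call was lost without 10-week replicate 1 (adjusted p = 0.101) or 2 (0.0529), or any 6-week replicate (0.0943, 0.0573 and 0.0593). In the same comparison 4 of 13 meningeal and fibroblast genes fell, Col3a1 (-1.09) among them, and so did Pmp22 (-0.79); their part in the Gsn difference was not tested. Mbp, Mobp and Mag had positive values (0.18 ± 0.14, 0.33 ± 0.11 and 0.22 ± 0.09), none called by the brightest probe set; with quantile normalization Mbp read -0.18. Other probe sets were called higher at 10 weeks: the second (0.49) and the third brightest of Mbp (0.43), and the second (0.45) and the third of Mobp (0.48). None of these 4 was called with median centring or with quantile normalization (adjusted p between 0.0632 and 0.353). The dimmest Tspan2 probe set (-0.50) and 2 further Gsn probe sets (-0.49 and -0.54) were lower; with quantile normalization this pair was not called (adjusted p = 0.0653 and 0.0597). Of 18 cholesterol synthesis genes 5 fell, Msmo1 (-0.81) and Idi1 (-0.54) among them.

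The change with age was then compared between regions, as the oculomotor change minus the spinal cord change. By their brightest probe sets no member was called, while 0.368% of all probe sets were called, and at an unadjusted p under 0.05 there were 8 members lower and none higher, where 9.05% of all probe sets were lower and 7.02% higher. Mobp (-0.71 ± 0.16, adjusted p = 0.0564), Mag (-0.52 ± 0.12, 0.0792), Mbp (-0.56 ± 0.19, 0.172) and Plekhb1 (-0.52 ± 0.15, 0.128) had the most negative values. With quantile normalization these were -0.40, -0.45, -0.016 and -0.29, none called. Without 6-week mutant spinal cord replicate 2, Mobp was called (-0.82, adjusted p = 0.0464). A pair of probe sets that are not the brightest of their genes were called, the dimmest of Mobp (-0.77) and the dimmer of Qdpr (-0.57), and neither was called with median centring (adjusted p = 0.0719 and 0.071) or quantile normalization (0.113 and 0.0771). The lipid genes and lineage factors lay between -0.22 and 0.27.

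The mean signal of the 30 genes was set against their difference in each of 9 comparisons, and Pearson's r ran from -0.61 to 0.63. Genes with brighter signals had the more negative age-by-region values (r = -0.61, Spearman's rho = -0.63) and the more positive mutant minus control values in the oculomotor nucleus (r = 0.63, rho = 0.69). With quantile normalization the first r was -0.16 and the other 0.35. Both are across genes measured on the same arrays, genes are not independent replicates, and brightness depends on the probes as well as on the RNA. The contrasts share the 10-week mutant oculomotor arrays.

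**Figure D5:**
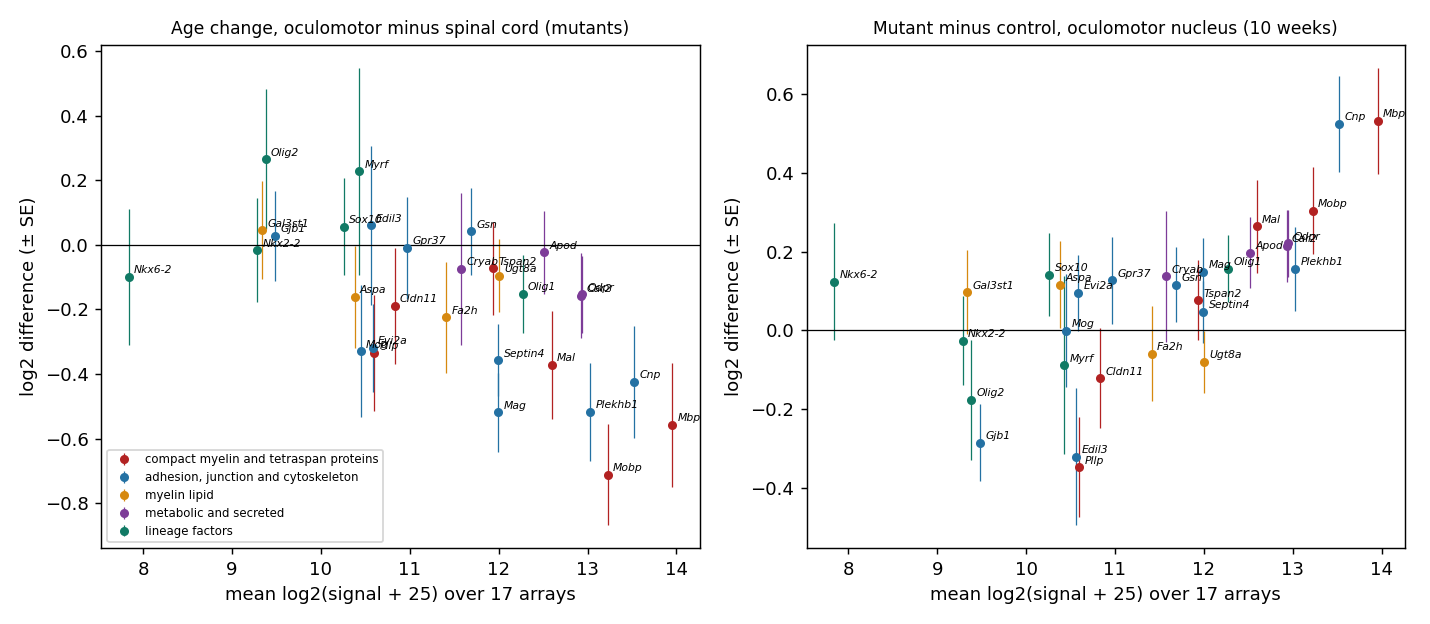
Left, the change from 6 to 10 weeks in mutants, oculomotor minus spinal cord, and right, mutants minus controls of 10 weeks in the oculomotor nucleus, each against the mean log2(signal + 25) over 17 arrays for 30 genes coloured by class; bars are SE. Mobp, Mbp, Cnp and Plekhb1 lie at the lower right of the left panel, and Mbp and Cnp at the upper right of the right panel; with quantile normalization r moved to -0.16 on the left and 0.35 on the right.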

How the data were processed

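Total RNA was labelled as biotinylated cRNA and hybridised to Affymetrix 430A arrays, per the labels' protocols. The authors deposited probe set intensity from Affymetrix Microarray Suite 5.0 (MAS5), per the series' design text and the submitters' processing notes. The values are linear and scaled per array, with a 2% trimmed mean of 500.13 to 500.16. That scaling makes each value relative to the rest of its array, and the submitters' present and absent calls were not used here. Of 22690 probe sets, 64 controls were removed. An offset of 25 was added, log2 was taken with no further normalization, and the 40% with the lowest mean were left out (limit 7.38), which left 13575 of 8072 genes. Of the probe sets kept before this filter, 20380 had 1 symbol, 691 several and 1555 none.

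Group means (6) were estimated by limma 3.58.1, run in R 4.3.3, with lmFit followed by contrasts.fit and a trended eBayes; 11 degrees of freedom were left for the residual. Benjamini-Hochberg adjustment ran over all tested probe sets, separately in each of 9 contrasts. The fit was planned with 18 arrays, and the array of control spinal cord replicate 1 was dropped once its values had been seen. A gene is represented by its probe set of highest mean signal. Values on every array are given for members whose results differ between conditions or that define a class, and up to 4 genes of smallest p in a companion list could be named. The members, classes and lists were chosen with earlier results of these data known, and the region markers after the values were seen. The fit was tested on simulated data.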

Additional observations from a re-analysis of the deposited data

Results flagged for a closer look

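For 2 probe sets the change with age in mutants differed between the regions by limma's test of the difference itself, oculomotor change minus spinal cord change. The dimmest of 3 Mobp probe sets had a difference of -0.77 (adjusted p = 0.0495). Its oculomotor signals were 3871, 3019 and 3726 at 10 weeks, against 4935, 4099 and 3976 at 6 weeks. Its spinal cord signals were 5895, 5893 and 6103 at 10 weeks, against 4264, 4418 and 4129.7 at 6 weeks. Every 10-week array lay below every 6-week array in the oculomotor nucleus and above every 6-week array in spinal cord. The brighter Mobp probe sets read -0.71 (adjusted p = 0.0564) and -0.69 (0.0811).

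The dimmer of 2 Qdpr probe sets had a difference of -0.57 (adjusted p = 0.0454). Its oculomotor signals were 5300.2, 4748 and 4994 at 10 weeks, against 5930.2, 6216 and 6567 at 6 weeks, and its spinal cord signals were 5614, 6042 and 5545 at 10 weeks, against 4689.5, 4750.0 and 4967 at 6 weeks. The brightest Qdpr probe set read -0.15 (adjusted p = 0.561) in the same comparison. Both called values lie close to the threshold: with median centring the adjusted p was 0.0719 for Mobp and 0.071 for Qdpr, and with quantile normalization 0.113 and 0.0771.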

How the results depend on the processing

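Of 7821 values, for 270 results of single genes in up to 29 other settings, 7648 kept their side of the threshold, 132 lost a call, 26 gained one and 15 called values reversed. Of the 7648, 235 changed sign, 19 of them with quantile normalization and 21 with median centring, and none of the 235 was called. All 15 reversals came with all 18 arrays, in the regional comparison of controls, where the array that correlates with no other is added: Mobp 1.71, Car2 1.54, Qdpr 1.40, Mbp 1.14, Cnp 0.60, Olig1 0.50, Ugt8a 0.48, Cryab 0.46, Apod 0.30, Septin4 0.27, Sox10 0.24, Plekhb1 0.24, Mal 0.23, Aspa 0.23 and Mog 0.21. With all 18 arrays each regional comparison called 2 members, age in spinal cord and genotype in the oculomotor nucleus 0, and the median was 0.24 for the region in controls, 1.04 for genotype in spinal cord and -0.92 for genotype by region. Under a rule of every pair of arrays in 1 direction and over 2-fold, 5 members were lower in 10-week mutants, 4 in controls and 3 in 6-week mutants, and 0 differed by genotype in the oculomotor nucleus or by age in spinal cord.

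The genotype count in the oculomotor nucleus was 0 with no filter, with no trend, with quantile normalization, without both hormone arrays and at an adjusted p under 0.01, and 2 with a fit of its own arrays, with the replicate block and with the probe set of lowest p. Age in spinal cord called 3 with median centring, 2 with quantile normalization, 4 with the probe set of lowest p, and 0 with its own arrays and at 0.01. Age in the oculomotor nucleus called 1 with an offset of 100 and with quantile normalization, under which the age by region median was -0.038. With the probe set of lowest p, age by region called 2 and the 10-week mutant regional median was -0.69. Leaving out each array gave 0 to 2 members for genotype in the oculomotor nucleus, 0 to 2 for age in spinal cord, 0 to 1 for age by region, 14 to 17 for the region in 6-week mutants, 18 to 25 in controls and 20 to 23 in 10-week mutants. Members separated by age in the oculomotor nucleus numbered 20 without the hormone arrays, where 11.3% of all probe sets were separated, against 7% with them. That setting leaves fewer 10-week mutant oculomotor arrays, so full separation is easier to reach. This setting and both normalizations of that count were chosen after seeing the data, as were both for dimmer probe sets and for r across genes.

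Same-numbered arrays of different groups did not deviate together (correlations of -0.10 to 0.13 over 40 pairs). These pairs mix ages and genotypes, so they cannot show whether both regions came from the same mice. With the replicate block the regional counts stayed at 22, 25 and 17. Counts of all called probe sets moved by over 1.5 times as well: the regional counts of 2619, 1841 and 3239 in 10-week mutants, controls and 6-week mutants became 209, 314 and 310 with all 18 arrays, 271, 277 and 338 under the pairwise rule, and 1405, 1015 and 1840 at an adjusted p under 0.01, and the control count was 875 without control spinal cord replicate 2. For genotype in the oculomotor nucleus 200 became 57 without the hormone arrays and 392 with its own arrays; for age in spinal cord 374 became 42 with its own arrays. Median centring turned the share of called probe sets that were higher to 39.7%, against 51.1%, for the region in 6-week mutants, 30.2% against 64.7% for age in spinal cord, and 90% against 38% for age by region (61.5% with quantile normalization). Signals of the members lay above the filter limit, except for 4 of 59 probe sets.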
